A study of Mus musculus with 6 samples.

Results

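The amino acid transporters described here are the 59 genes, of 35275 in the deposited count table, whose symbols place them in the solute carrier families Slc1, Slc6, Slc7, Slc36, Slc38 or Slc43, together with Slc3a2. The rule uses names alone and no measured value, but it was chosen with earlier results of these data known. The RNA came from primary cultures of microglia, the resident macrophages of the brain, of C57/BL6 mice. In the Treg co-cultured group (n = 3), the microglia shared their wells for 2 days with regulatory T cells (Tregs) in transwell inserts. Before that the Tregs had spent 24 hours above brain slices taken 5 days after transient middle cerebral artery occlusion (tMCAO, a stroke model). The Control group (n = 3) was microglia without Tregs. The labels mention neither an empty insert nor slice contact for controls, so the Tregs, carried slice material and the insert cannot be told apart. No label gives the age of the mice or says that replicates were separate cultures, and the tests below may therefore measure technical spread only.

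Amino acid transporters are membrane proteins that carry amino acids, or relatives such as taurine and creatine, across the plasma membrane and the membranes of lysosomes. The Slc7 light chains act as exchangers and reach the cell surface bound to the heavy chain 4F2hc, which Slc3a2 encodes. Sodium-driven carriers of the Slc1, Slc6 and Slc38 families build the gradients that these exchangers use, and the Slc36 family moves amino acids with protons. In macrophages and microglia the best known roles are cystine uptake coupled to glutamate release, arginine uptake for nitric oxide or arginase, and leucine and glutamine uptake upstream of the kinase complex mTORC1.

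Microglia co-cultured with Tregs carried more transcript of the 4F2hc heavy chain and of most of its expressed light chains, of the arginine carriers Slc7a1 and Slc7a2 and of the neutral carriers Slc38a2 and Slc1a4. They carried less of the leucine carrier Slc43a2, the glutamine exchanger Slc1a5, the taurine carrier Slc6a6 and both lysosome-associated Slc36 carriers. The calls of Slc7a2, Slc1a4 and the light chain Slc7a11 were weaker and were lost in some of the alternative fits given below. Of the 59 members 30 had enough counts to be tested, a level of at least 0.466 CPM (counts scaled to library size) in at least 3 libraries, and 27 of these passed that level in every library. None passed it in libraries of 1 group only. Of the 30, 12 were higher, 8 lower and 10 not called at an adjusted p below 0.05 (edgeR quasi-likelihood F-test, Benjamini-Hochberg over 13274 genes). Over all genes tested, 50.9% were called, 25.9% higher and 25% lower, so that a called transporter was no rare event among these genes. The median log2 fold change (co-cultured over Control) was 0.03 over the 30 members and -0.01 over all genes tested. The changes were small: 2 of the 30 were called with at least a 2-fold change, where 9.94% of all genes tested were. The groups did not overlap at 23 of the 30, with 14 higher and 9 lower, and at 57.2% of all genes tested, 28.6% in each direction. The split depended little on scaling for the members, with 11 higher and 9 lower under upper-quartile scaling or library totals alone, but the share of higher calls among all called genes was 50.8%, 40% and 41% under the 3 scalings.

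The libraries held 20987384 to 22084542 counts after co-culture and 16972758 to 21465960 in controls. Mitochondrial transcripts took 0.636% to 0.772% of counts after co-culture and 1.32% to 1.38% in controls. Ribosomal protein genes took 1.15% to 1.34% of counts after co-culture and 1.87% to 2.09% in controls. Of 14 microglial markers 13 passed the filter (Siglech did not), with 6 called higher and 7 lower and a summed level of 6346 to 6687 CPM after co-culture against 7737 to 7992 CPM in controls. The summed level of 10 monocyte and border macrophage markers was 1175 to 1262 CPM after co-culture and 710.4 to 751 CPM in controls. Most of it was Ms4a7, Mrc1 and Pf4, with 568, 448 and 185 CPM after co-culture and 439, 270 and 24.8 CPM in controls. Of the 5 tested, 4 were called higher (these and Cbr2), and Ccr2 was not called, at 1.51 CPM after co-culture and 1.52 CPM in controls. Lyve1, not tested, had 0 counts in each co-cultured library and 3, 5 and 4 in controls. The T cell genes Trac, Trbc1, Cd2 and Ctla4 had 0 counts in every library. The summed level of the 15 T cell markers, most of it Cd28, was 54.9 to 60.7 CPM after co-culture, against 125 to 139.7 CPM in controls. Of the 6 T cell markers tested, 1 was called higher (Cd4, 2.53-fold) and 3 lower (Cd28, Foxp3 and Ikzf2). Cd3e, not tested, had 10, 2 and 3 counts in the co-cultured libraries and 0 counts in each control. The 9 neuron markers summed to 30.8 to 31.99 CPM after co-culture and 13.3 to 19.8 CPM in controls. Much of that difference was Syn1, at 16.5 CPM after co-culture and 3.03 CPM in controls. Of the 7 neuron markers tested, 2 were called higher (Syn1 and Map2), 1 lower (Stmn2) and 4 not called. Nefl, not tested, had 1, 4 and 0 counts after co-culture and 4, 15 and 29 in controls. The 11 oligodendrocyte markers summed to 294 to 310 CPM after co-culture and 319.5 to 340.4 CPM in controls, with 2 called higher and 8 lower. The 10 endothelial and fibroblast markers summed to 114 to 136 CPM after co-culture and 133 to 141 CPM in controls. That sum hides opposite changes. Of the 8 tested, 4 were called higher (Pecam1, Cdh5, Kdr and Dcn), and the median log2 fold change was 1.14. The 1 called lower was Flt1, at 47.0 CPM after co-culture and 95.6 CPM in controls. Of the 2 most abundant markers of each list, Ms4a7, Mrc1, Aldh1l1, Cnp, Syn1, Map2 and Kdr were called higher, Cd28, Ikzf2, Cspg4 and Flt1 lower, and Gfap was not called. Whether these shifts had a part in the transporter results was not tested. In bulk RNA, fewer cells of a type and less RNA per cell cannot be told apart.

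**Figure D1:**
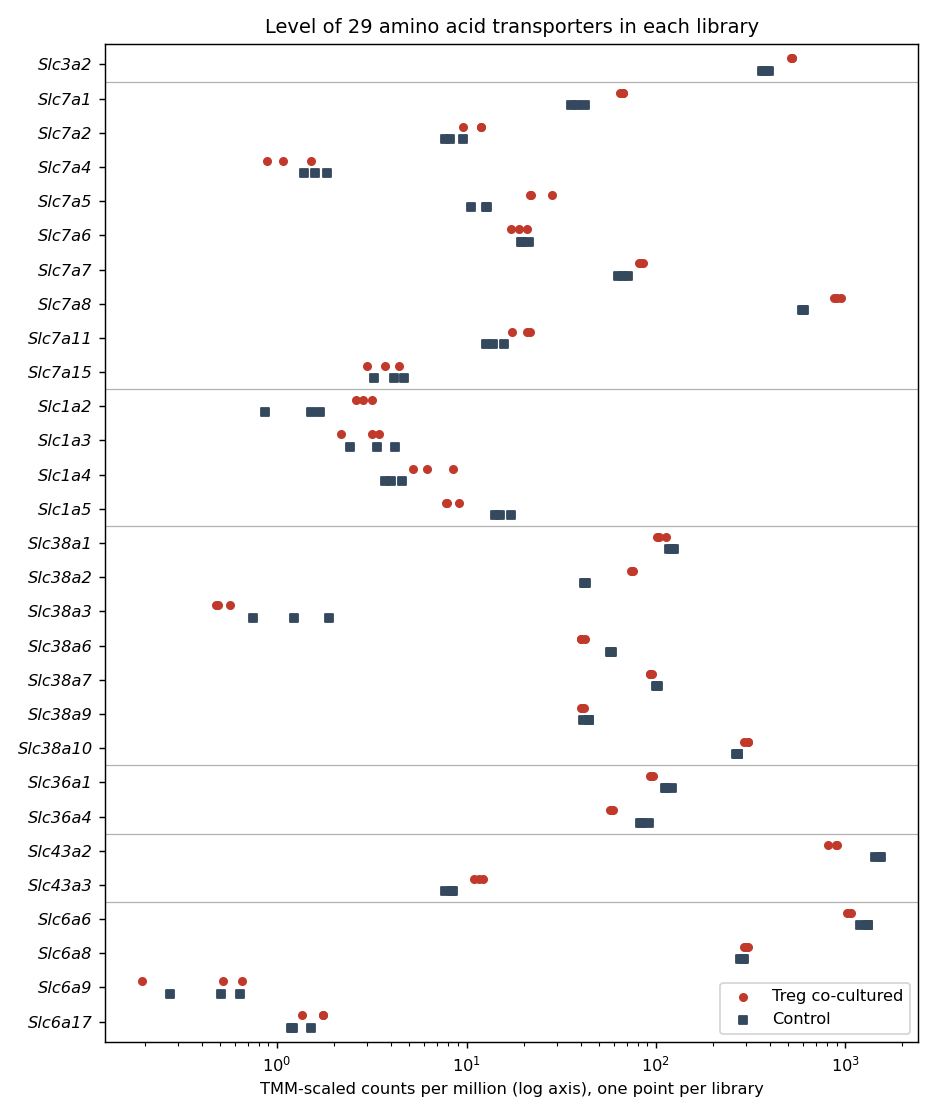
Level of 29 amino acid transporters tested, in TMM-scaled CPM on a log axis, with 1 point per library. Red circles are the 3 Treg co-cultured libraries and dark squares the 3 Control libraries, with grey lines between the families. Slc7a8, Slc3a2, Slc38a2 and Slc7a1 show co-cultured points to the right of all Control points, and Slc43a2 and Slc1a5 show them to the left.

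The heavy chain Slc3a2 (chromosome 19, 8706882 to 8723369, minus strand, GRCm38) had 526, 515 and 525 CPM in the co-cultured libraries, against 361, 379 and 395 CPM in controls. All co-cultured libraries lay above all controls, and the gene was 1.38-fold higher (log2 fold change 0.47 ± 0.05 SE, adjusted p = 1.03e-09). Slc7a8 (chromosome 14, 54722209 to 54781946, minus strand) encodes LAT2, an exchanger of neutral amino acids, and had 904, 947 and 874 CPM in the co-cultured libraries, against 593, 606 and 597 CPM in controls. The 2 groups were well separated, with a 1.52-fold higher level (log2 fold change 0.60 ± 0.05 SE, adjusted p = 3.37e-12). Slc7a5 (chromosome 8, 121881150 to 121907694, minus strand), which encodes LAT1, the exchanger that brings in leucine and other large neutral amino acids, had 21.7, 28.1 and 21.8 CPM in the co-cultured libraries, against 12.6, 10.6 and 12.9 CPM in controls. It was 1.97-fold higher (adjusted p = 5.66e-09), the largest rise in the Slc7 family, and co-cultured replicate 2 was the highest library. 

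Slc7a11 (chromosome 3, 49892526 to 50443614, minus strand) encodes xCT, which takes up cystine in exchange for glutamate and so feeds glutathione synthesis. It had 20.8, 21.6 and 17.4 CPM in the co-cultured libraries, against 12.7, 15.7 and 13.8 CPM in controls, with no overlap between groups, and was 1.42-fold higher (log2 fold change 0.51 ± 0.10 SE, adjusted p = 7.65e-05), a call lost in the FPKM table without a filter (adjusted p = 0.0767). Slc7a7, the y+LAT1 chain that exports cationic amino acids against neutral ones, had 81.8, 83.9 and 85.6 CPM in the co-cultured libraries, against 63.4, 67.0 and 71.0 CPM in controls. This was a smaller but separated rise, 1.25-fold higher (adjusted p = 1.84e-05). Its close relative Slc7a6, the y+LAT2 chain, had 19.0, 17.1 and 20.8 CPM in the co-cultured libraries, against 19.5, 21.3 and 19.5 CPM in controls, with overlapping groups, and was not called (adjusted p = 0.458, 95% interval of the log2 fold change -0.27 to 0.10). Of the 6 light chains listed as partners of Slc3a2, 5 could be tested. Of these, 4 (80%) were called higher, against 25.9% of all genes tested. The list was chosen with earlier results of these data known, so this share only describes it. Slc7a10, a light chain known from astrocytes and neurons, had 2 counts in Control replicate 1 and 0 counts in the other libraries.

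Because FPKM is scaled to gene length, it allows levels of different light chains to be set side by side. The light chains summed to 267, 284 and 265 FPKM in the co-cultured libraries, against 192, 196 and 195 FPKM in controls, while Slc3a2 itself stood at 181 ± 1.64 FPKM after co-culture and 137 ± 5.62 FPKM in controls (SD, n = 3 each). The ratio of summed light chains to heavy chain was 1.5 ± 0.0688 after co-culture and 1.41 ± 0.047 in controls (exact two-sided permutation test, p = 0.2). Slc7a8 made up 80.9% ± 0.642 of light-chain FPKM after co-culture and 78.1% ± 0.716 in controls, followed by Slc7a7 with 14.1% ± 0.644 after co-culture and 16.5% ± 0.74 in controls. The share of Slc7a5 was 2.43% ± 0.291 after co-culture and 1.8% ± 0.198 in controls, and that of Slc7a6 was 1.83% ± 0.238 after co-culture and 2.83% ± 0.124 in controls. For these 4 light chains the shares of the 2 groups did not overlap, and the exact permutation p was 0.1, the smallest that 3 samples against 3 allow. Slc7a11 kept under 1% of the total, with 0.775% ± 0.0656 after co-culture and 0.803% ± 0.0751 in controls (exact permutation p = 0.7).

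**Figure D2:**
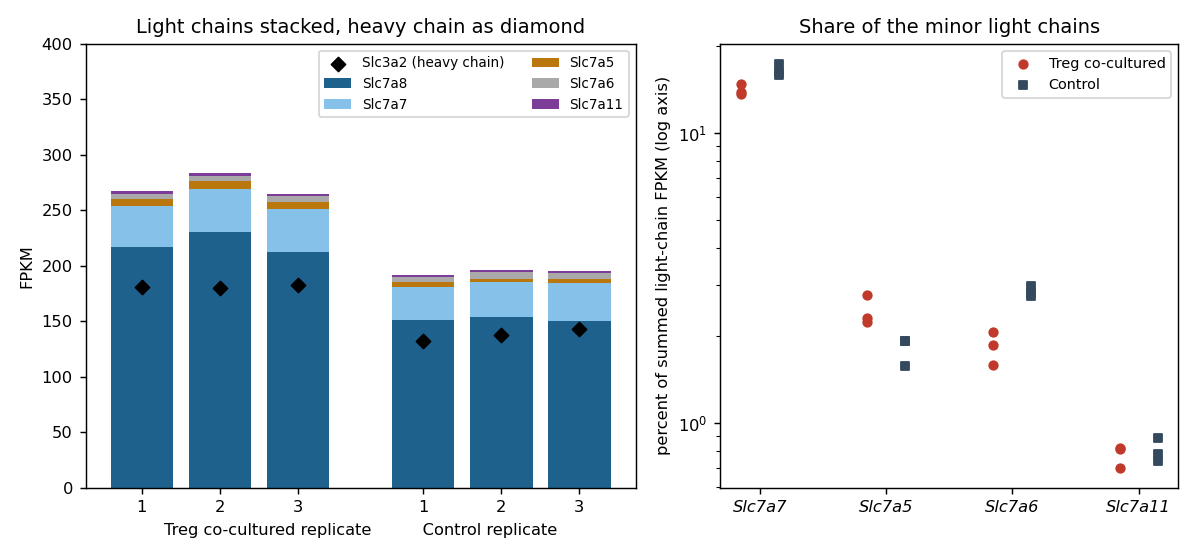
Left, FPKM of the light chains stacked in each library, with the heavy chain Slc3a2 as a diamond, co-cultured libraries first and Control libraries after them. Right, share of each minor light chain in the summed light-chain FPKM (percent, log axis), with 1 point per library. Slc7a8 is the bulk of every column, and the co-cultured columns reach 265 to 284 FPKM against 192 to 196 FPKM in controls.

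CAT1 and CAT2, carriers of arginine, lysine and ornithine that need no heavy chain, also rose. Slc7a1 (chromosome 5, 148327410 to 148399904, minus strand), which encodes CAT1, the basal arginine carrier of most cells, had 64.5, 67.0 and 66.8 CPM in the co-cultured libraries, against 42.4, 38.5 and 35.6 CPM in controls. It was 1.70-fold higher with clear separation (log2 fold change 0.77 ± 0.07 SE, adjusted p = 7.77e-12). Slc7a2, which encodes CAT2, the arginine carrier that activated macrophages use, had 11.97, 11.9 and 9.62 CPM in the co-cultured libraries, against 9.61, 8.14 and 7.70 CPM in controls. Its groups touched, with the lowest co-cultured library just above the highest control in CPM and below it in FPKM, and the 1.32-fold higher level (adjusted p = 0.00864) was no longer called without Control replicate 3 (adjusted p = 0.0509), without co-cultured replicate 2 (0.0529) or in the FPKM table (0.105 to 0.27). Slc7a4, a family member of unsettled function, averaged 1.16 ± 0.322 CPM after co-culture and 1.60 ± 0.225 CPM in controls (SD, n = 3 each) and was not called (adjusted p = 0.209). Slc7a15 averaged 3.70 ± 0.715 CPM after co-culture and 4.03 ± 0.717 CPM in controls and was not called (adjusted p = 0.625). In all, 6 of the 9 Slc7 genes tested (66.7%) were called higher, against 25.9% of all genes tested, and the other 3 were not called. A further 6 were not tested: Slc7a3, the third cationic carrier, had 6, 4 and 4 counts in the co-cultured libraries, against 10, 11 and 7 in controls, Slc7a13 and Slc7a14 had at most 4 counts in any library, Slc7a10 had 2 counts in all, and Slc7a9 and Slc7a12 had 0 counts in every library.

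Several of these genes are textbook targets of ATF4, the transcription factor that is translated when amino acids run short or the endoplasmic reticulum is stressed, and that binds amino acid response elements. Its core TTGCATCA was sought on both strands in the RefSeq windows (GRCm38.p6) of 250 bases before to 50 bases after each start, which 20 of the 30 members tested had, with 31 windows between them. It was found in 4 of the 31 windows, belonging to Slc7a11, Slc7a7 and Slc1a4, against 0.895% of 32851 windows of all genes. The stretches below are shown because they hold these matches, with Slc3a2 as the heavy chain of the first 2. Each is 120 bases, 5′ to 3′ on the gene's strand, and capitals mark the core. All but that of Slc3a2 were thus chosen by their matches, and Slc1a4 was outside the planned choice.
Slc7a11 (chr3:50443614-50443733, minus strand): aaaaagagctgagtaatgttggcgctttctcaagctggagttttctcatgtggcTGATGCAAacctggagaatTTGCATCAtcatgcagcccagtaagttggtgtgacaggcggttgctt
Slc7a7 (chr14:54417938-54418057, minus strand): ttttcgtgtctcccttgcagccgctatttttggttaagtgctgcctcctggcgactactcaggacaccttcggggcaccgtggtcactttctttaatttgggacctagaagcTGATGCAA
Slc1a4 (chr11:20332710-20332829, minus strand): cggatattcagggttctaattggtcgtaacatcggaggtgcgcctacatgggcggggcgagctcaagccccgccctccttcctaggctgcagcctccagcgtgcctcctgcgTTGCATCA
Slc3a2 (chr19:8713898-8714017, minus strand): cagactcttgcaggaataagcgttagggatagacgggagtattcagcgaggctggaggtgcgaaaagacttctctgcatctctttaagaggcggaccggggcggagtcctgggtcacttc
The Slc7a11 stretch holds the core once on each strand, with last bases 59 and 40 bases before the start, and the single matches of Slc7a7 and Slc1a4 cross the start. The second Slc7a7 window held the same genomic match, seen from a start further downstream. The antioxidant response element core TGACNNNGC was in 7 of the 31 windows and in 12.4% of all windows, the gamma-activated site TTCNNNGAA in 4 and in 8.3%, and the interferon-stimulated response element core (GAAA, NN, GAAA) in 0 and in 3.44%. A match is a description of the letters and says nothing of binding, and an absent match says only that these letters are not in the window. Of the 9 transporters listed as ATF4-regulated, 8 were tested, and 6 were called higher (Slc3a2, Slc7a1, Slc7a5, Slc7a11, Slc38a2 and Slc1a4), 1 lower (Slc1a5) and 1 not called (Slc6a9). Their median log2 fold change was 0.60. Over all genes tested, 25.9% were called higher and 25% lower, and the median was -0.01. This list, too, was chosen with earlier results of these data known, and its counts only describe it.

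The Slc1 family divides into carriers of glutamate and carriers of neutral amino acids, and it moved in both directions. Slc1a5 (chromosome 7, 16781340 to 16798274, plus strand), which encodes ASCT2, an exchanger that brings in glutamine, had 7.86, 9.08 and 7.83 CPM in the co-cultured libraries, against 17.1, 15.1 and 14.2 CPM in controls. It was 1.87-fold lower (log2 fold change -0.90 ± 0.12 SE, adjusted p = 5.08e-08), with every co-cultured library below every control. Its relative Slc1a4 (chromosome 11, 20302180 to 20332713, minus strand), which encodes the serine and alanine exchanger ASCT1, moved the other way, with 5.19, 8.47 and 6.22 CPM in the co-cultured libraries, against 3.99, 3.69 and 4.58 CPM in controls. It was 1.61-fold higher (adjusted p = 0.0012), and co-cultured replicate 2 stood above the other libraries. In the FPKM table without a filter it was not called (adjusted p = 0.092).

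Among the glutamate carriers, Slc1a2 (chromosome 2, 102658659 to 102790784, plus strand), known as GLT-1 and mainly from astrocytes, had 3.18, 2.84 and 2.62 CPM in the co-cultured libraries, against 1.68, 0.866 and 1.51 CPM in controls. This was the largest rise of any member, 2.09-fold higher (adjusted p = 6.74e-04), at a low level of 54 to 68 counts after co-culture against 15 to 37 counts in controls, and it was not called in the FPKM table without a filter (adjusted p = 0.108). Slc1a3, the GLAST carrier that astrocytes also use, had 3.18, 3.45 and 2.19 CPM in the co-cultured libraries, against 3.36, 2.42 and 4.22 CPM in controls, with overlapping groups and no call (adjusted p = 0.484). The 9 astrocyte markers summed to 31.9 to 37.9 CPM after co-culture and 30.9 to 38.1 CPM in controls, with Gjb6 at 0 counts in every library. Of the 8 tested markers, 1 was higher (Aldh1l1, 1.77-fold) and 3 were lower (Aqp4 3.68-fold, S100b 6.39-fold and Fgfr3 2.04-fold). Slc1a1, the neuronal carrier EAAC1, had 17, 4 and 4 counts in the co-cultured libraries, against 1, 2 and 7 in controls, and did not pass the filter. Slc1a6 had at most 3 counts in any library and Slc1a7 had 0 counts in every one.

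**Figure D3:**
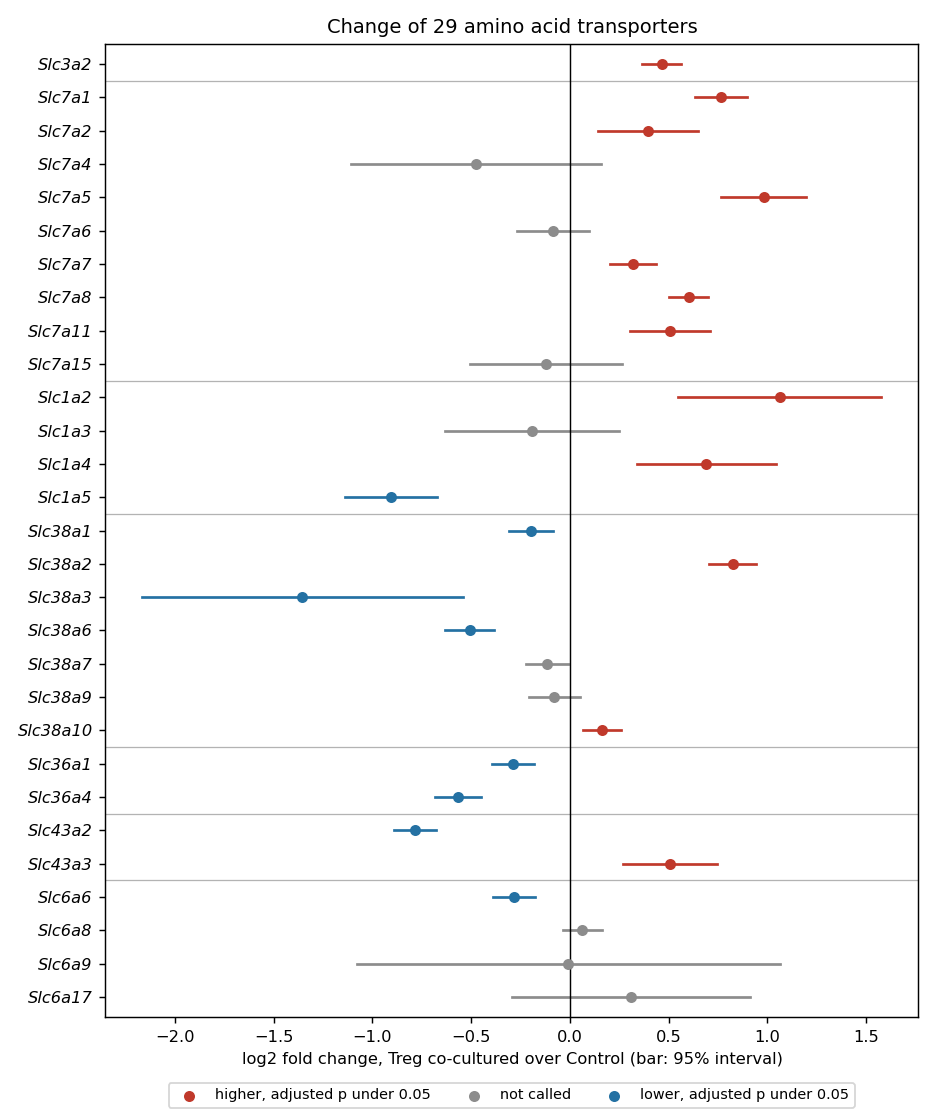
log2 fold change of 29 transporters tested, Treg co-cultured over Control, with its 95% interval from the edgeR fit. Red marks genes called higher, blue genes called lower and grey genes not called, and grey lines divide the families. Slc7 points called at the threshold all lie to the right of 0, whereas Slc1, Slc38 and Slc43 have called genes on both sides.

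The Slc38 family takes up or releases small neutral amino acids, chiefly glutamine and alanine. Slc38a2 (chromosome 15, 96687392 to 96699730, minus strand), which encodes SNAT2, a carrier that cells raise when starved of amino acids, had 73.6, 74.9 and 75.7 CPM in the co-cultured libraries, against 42.1, 42.9 and 41.7 CPM in controls. The libraries of each group lay within a few CPM of each other, and the gene was 1.77-fold higher (log2 fold change 0.82 ± 0.06 SE, adjusted p = 8.88e-14). Its neighbour on chromosome 15, Slc38a1, the related carrier SNAT1, had 103, 101 and 113 CPM in the co-cultured libraries, against 121, 125 and 117 CPM in controls. It was 1.15-fold lower (adjusted p = 0.00309), so that the ordering of the groups was opposite for these neighbouring genes. Slc38a6 (chromosome 12, 73286779 to 73354049, plus strand) fell as well, with 40.0, 40.2 and 42.0 CPM in the co-cultured libraries, against 58.0, 57.0 and 58.7 CPM in controls. It was 1.42-fold lower (adjusted p = 1.75e-08), with no overlap.

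Slc38a10, the most abundant member of its family per length, had 307, 292 and 306 CPM in the co-cultured libraries, against 271, 266 and 270.4 CPM in controls. It was 1.12-fold higher (adjusted p = 0.00453) and was not called with upper-quartile scaling (adjusted p = 0.103), library totals alone (0.0769) or in the FPKM table (0.0534 to 0.0807). Slc38a3, a glutamine carrier of liver and astrocytes, was close to the detection limit, with 12, 10 and 10 counts in the co-cultured libraries, against 27, 13 and 41 in controls. It was called lower (log2 fold change -1.35 ± 0.40 SE, adjusted p = 0.00493), and the call was lost without Control replicate 3 (log2 fold change -0.98, adjusted p = 0.0786) and in the FPKM table without a filter (0.0684). Slc38a4 had at most 5 counts in any library and Slc38a11 at most 1, and Slc38a5 and Slc38a8 had 0 counts in every library.

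Of the 4 tested members listed as lysosomal, 2 were called, both lower, which as a share (50%) is near the 50.9% of all genes tested. Slc36a4 (chromosome 9, 15709738 to 15743361, plus strand), which encodes PAT4, a carrier with high affinity for proline and tryptophan, had 57.7, 57.4 and 59.2 CPM in the co-cultured libraries, against 82.4, 91.5 and 84.7 CPM in controls. It was 1.48-fold lower (log2 fold change -0.57 ± 0.06 SE, adjusted p = 4.50e-10). Slc36a1 (chromosome 11, 55204350 to 55236330, plus strand), which encodes PAT1, a proton-coupled carrier of small amino acids out of lysosomes, had 92.8, 93.9 and 96.8 CPM in the co-cultured libraries, against 121, 113 and 112 CPM in controls. It was 1.22-fold lower (adjusted p = 2.93e-05), and for both genes every co-cultured library lay below every control. Slc38a9, which senses arginine inside lysosomes and reports it to mTORC1, had 40.8, 40.1 and 41.6 CPM in the co-cultured libraries, against 44.2, 44.1 and 41.0 CPM in controls, with overlapping groups, and was not called (adjusted p = 0.33, 95% interval of the log2 fold change -0.21 to 0.05). Slc38a7, which exports glutamine from lysosomes, had 92.8, 92.8 and 95.6 CPM in the co-cultured libraries, against 103, 102 and 99.8 CPM in controls. Its groups did not overlap but the gene was not called (adjusted p = 0.0652), and it was called lower with upper-quartile scaling (0.00292), library totals alone (0.00437), in the FPKM table (0.00562 to 0.009) and without Control replicate 3 (0.0481). Slc36a2 had 1 count in all and Slc36a3 at most 2 in any library.

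Slc43a2 (chromosome 11, 75531694 to 75577575, plus strand), which encodes LAT4, a carrier that lets branched-chain amino acids, phenylalanine and methionine pass without exchange, had 892, 815 and 908 CPM in the co-cultured libraries, against 1516, 1552 and 1435 CPM in controls. It was 1.72-fold lower (log2 fold change -0.78 ± 0.05 SE, adjusted p = 2.67e-14), and the groups were far apart. Slc43a3, which despite its family carries purine nucleobases, had 12.2, 11.7 and 11.0 CPM in the co-cultured libraries, against 8.53, 8.37 and 7.65 CPM in controls and was 1.42-fold higher (adjusted p = 4.64e-04). Slc43a1, the LAT3 carrier, did not pass the filter, with 4, 0 and 1 counts in the co-cultured libraries, against 7, 9 and 3 in controls.

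In the Slc6 family, which holds the carriers of neurotransmitters, taurine and creatine, 5 of 18 genes could be tested. Slc6a6 (chromosome 6, 91684053 to 91759066, plus strand), the taurine carrier, had 1060.4, 1017 and 1066 CPM in the co-cultured libraries, against 1323, 1315 and 1189 CPM in controls. It was 1.22-fold lower (log2 fold change -0.28 ± 0.05 SE, adjusted p = 2.62e-05), the only called gene of the 5 (20%, against 50.9% of all genes tested). Slc6a8, the creatine carrier, had 293, 306 and 298 CPM in the co-cultured libraries, against 288, 292 and 279 CPM in controls, just apart, and was not called (adjusted p = 0.276, 95% interval of the log2 fold change -0.03 to 0.16). The sign of its small difference turned negative with upper-quartile scaling, library totals alone and in the FPKM table. Slc6a17, a vesicular carrier of neutral amino acids, averaged 1.62 ± 0.227 CPM after co-culture and 1.30 ± 0.184 CPM in controls (SD, n = 3 each) and was not called (adjusted p = 0.407). Slc6a9, the glycine carrier GlyT1, averaged 0.457 ± 0.237 CPM after co-culture and 0.470 ± 0.184 CPM in controls and was not called (adjusted p = 0.993). Slc6a19, the epithelial carrier B0AT1, had 14, 7 and 7 counts in the co-cultured libraries, against 8, 10 and 8 in controls, and Slc6a15 had at most 4 counts in any library. Slc6a4, the serotonin carrier, and Slc6a11, the GABA carrier GAT3, had 4 counts each over all 6 libraries. Slc6a2, Slc6a3, Slc6a5, Slc6a12 and Slc6a16 had 1 count each, and Slc6a7, Slc6a13, Slc6a14 and Slc6a18 had 0 counts in every library.

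The order of the transporters by level per length differed between the groups, as the plot of mean FPKM shows. After co-culture the first places were held by Slc7a8 (220.0 ± 9.47 FPKM), Slc3a2 (181 ± 1.64), Slc6a6 (165.9 ± 3.82) and Slc43a2 (119 ± 6.52), each apart from the next (SD, n = 3). In controls Slc43a2 (215 ± 9.14 FPKM) and Slc6a6 (211 ± 13.3) came first and overlapped with each other, followed by Slc7a8 (151.7 ± 1.55) and Slc3a2 (137 ± 5.62). Slc6a8 and then Slc38a10 came next in both groups. The top 5 genes held 76.1% of the summed FPKM of the 59 members after co-culture and 76.7% in controls. Further down, Slc1a5 stood at 2.87 ± 0.263 FPKM after co-culture and 5.62 ± 0.574 FPKM in controls, so that it lay below Slc7a1, Slc7a5 and Slc7a6 after co-culture but overlapped with Slc7a1 in controls. Of the least abundant genes tested, Slc6a9, Slc38a3, Slc1a2, Slc6a17 and Slc7a4 were under 0.5 FPKM in both group means.

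**Figure D4:**
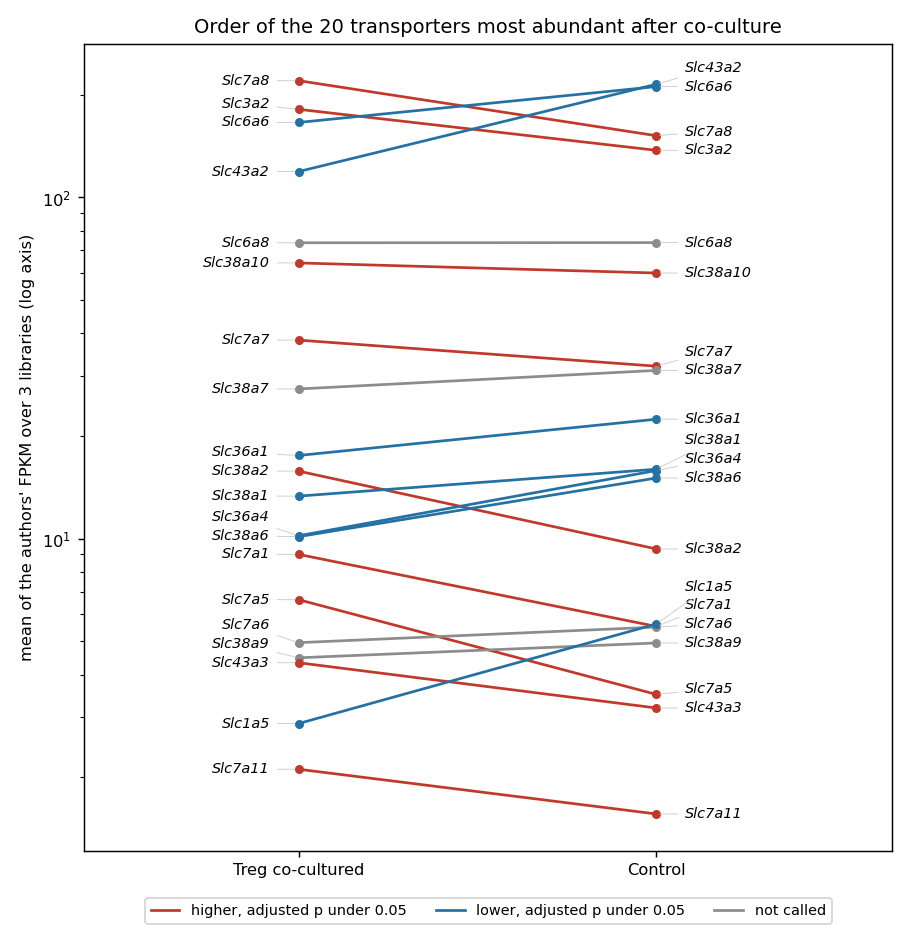
Mean FPKM over 3 libraries (log axis) of the 20 transporters most abundant after co-culture, with Treg co-cultured on the left and Control on the right. Lines join the same gene, red where it was called higher, blue where it was called lower and grey where it was not called. Slc7a8 and Slc3a2 lie above Slc6a6 and Slc43a2 on the left and below them on the right.

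Reads from overlapping genes limit a few of these values. Libraries of this type do not mark strand, so reads of a gene and of a gene on the other strand that shares its exons cannot be told apart. In GENCODE M21 the exons of Slc43a2 shared 922 bases with Gm45606, those of Slc7a2 635 bases with Gm26584, those of Slc7a4 554 bases with P2rx6 and those of Slc38a10 367 bases with Gm11769. The overlap was 232 bases with Oxa1l for Slc7a7, 189 bases with Gm13872 for Slc1a2, 182 bases with Gm47827 for Slc38a9 and 117 bases with Gm44981 for Slc6a6. Slc6a9 shared exonic bases with 3 genes, and each overlap named here was with the opposite strand.

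Genes around the transporters were examined in 4 lists. Of 17 tested amino acid carriers of other families, 5 were higher, 5 lower and 7 not called, and their log2 fold changes had a median of 0.02. The share called was 58.8%, against 50.9% of all genes tested. Slc25a22, the mitochondrial glutamate carrier, stood at 64.2 ± 1.40 CPM after co-culture and 21.0 ± 2.53 CPM in controls (SD, n = 3 each here and below) and was 3.06-fold higher (adjusted p = 1.10e-18). The mitochondrial aspartate-glutamate carriers went opposite ways: Slc25a12 stood at 58.4 ± 1.23 CPM after co-culture and 41.2 ± 0.859 CPM in controls (1.42-fold higher) and Slc25a13 at 12.8 ± 1.21 CPM after co-culture and 20.2 ± 2.06 CPM in controls (1.58-fold lower). Ctns, the lysosomal cystine exporter, fell and stood at 29.5 ± 2.33 CPM after co-culture and 41.7 ± 3.43 CPM in controls.

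Of 32 tested enzymes that act on the carried amino acids, 6 were higher, 14 lower and 12 not called. Their log2 fold changes had a median of -0.19. The share called was 62.5%, against 50.9% of all genes tested (25.9% higher and 25% lower). Glul, glutamine synthetase, which joins glutamate and ammonia, stood at 813 ± 39.4 CPM after co-culture and 1207 ± 41.3 CPM in controls and was 1.49-fold lower (adjusted p = 2.95e-11). Asns, asparagine synthetase, was 2.31-fold higher (adjusted p = 7.76e-14), Ass1, which rebuilds arginine from citrulline, 2.03-fold higher, and Gpt2, a mitochondrial alanine aminotransferase, 1.68-fold higher. At each of these 4 genes the groups were apart.

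The list of amino acid sensing by mTORC1 also holds subunits of mTORC1, such as Rptor, and other genes such as Tsc1, Rheb and Tfeb. Of its 39 tested genes, 6 were higher, 14 lower and 19 not called, with a median change of -0.08 (log2). The share called, 51.3%, was near the 50.9% of all genes tested. Sesn1, a sestrin that restrains mTORC1, stood at 57.6 ± 2.50 CPM after co-culture and 159.9 ± 3.31 CPM in controls and was 2.78-fold lower (adjusted p = 2.19e-21). Rragd, a Rag GTPase that recruits mTORC1 to lysosomes, was 1.79-fold lower, and Flcn, which acts on the Rag GTPases, 1.54-fold lower. Rptor, the scaffold subunit of mTORC1, rose and stood at 229.8 ± 6.05 CPM after co-culture and 167 ± 7.63 CPM in controls (1.38-fold higher). Of 25 tested genes of the amino acid response, 11 were higher, 8 lower and 6 not called, and their log2 fold changes had a median of 0.17. The share called was 76%, against 50.9% of all genes tested (25.9% higher and 25% lower). Atf4 itself stood at 157 ± 3.77 CPM after co-culture and 83.7 ± 5.70 CPM in controls and was 1.87-fold higher (adjusted p = 1.62e-15). Mthfd2, a mitochondrial folate enzyme and ATF4 target, was 2.98-fold higher. Eif2ak2, a kinase of the initiation factor eIF2 that interferon also induces, was 2.40-fold higher. Asns belongs to this list too. Among the 8 lower genes of the list were Ddit4 (2.05-fold), Phgdh (1.71-fold), Ppp1r15a (1.61-fold) and Aldh1l2 (1.54-fold). Psat1 and Chac1 were not called.

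**Figure D5:**
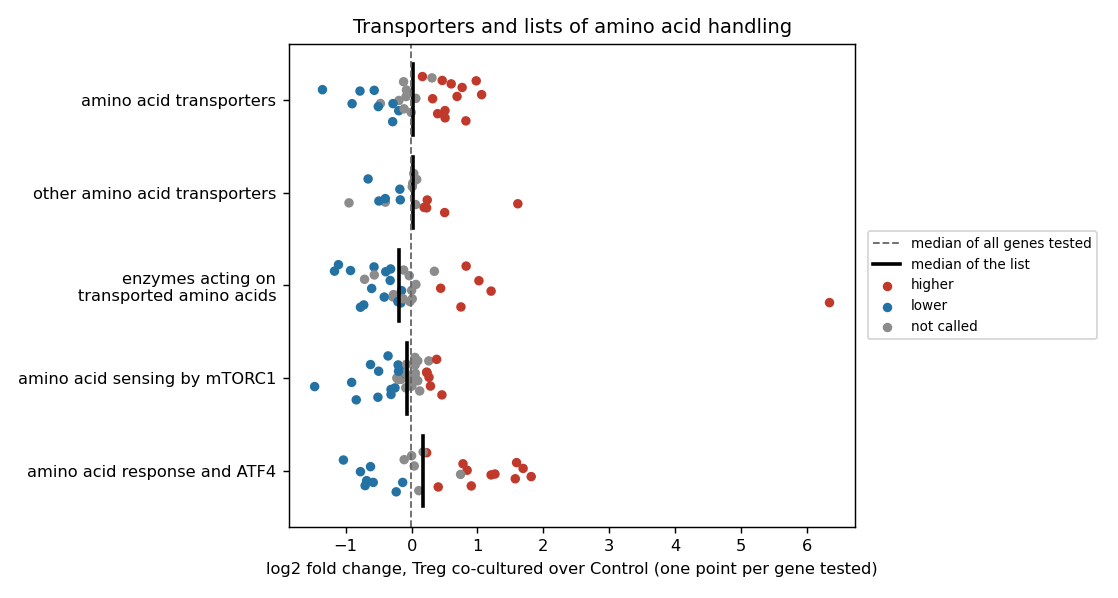
log2 fold change, Treg co-cultured over Control, of 29 amino acid transporters tested and of every gene tested in 4 lists of amino acid handling, with 1 point per gene, jittered vertically. Red points were called higher, blue points lower and grey points not called, black bars are medians over all tested genes of a list and the dashed line is the median of all genes tested. The point far to the right is arginase, Arg1, at 6.35, named after its value was seen.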

How the data were processed

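RNA of 6 microglia samples was sequenced paired-end (75 bases) after SMART-Seq HT amplification and Nextera XT tagmentation, per the labels' protocols. Per the submitters' processing notes, STAR (version not given) and HTSeq 0.11.2 were used with GRCm38. Neither annotation release nor strand option is stated there. The tables deposited by the authors hold raw read counts and FPKM. Dividing one by the other and by depth gave 1 length per gene (relative tolerance 0.001) in all 12011 genes with 10 or more counts in each library. Counts of the sheet with identifiers were tested. The sheet with names holds the same member counts per group for 59 of 59.

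Counts were filtered (filterByExpr), scaled by TMM and tested with edgeR 4.0.16 (robust quasi-likelihood F-test, two-sided, group as only term, R 4.3.3, limma 3.58.1), with Benjamini-Hochberg adjustment over 13274 genes. Levels between libraries are TMM-scaled CPM, levels between genes FPKM. DESeq2 1.42.0 and other settings were alternatives. No molecular identifiers were used, so amplified reads are not independent molecules. All 59 members were found in GENCODE M21.

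The members, lists and tests were chosen with earlier results of these data known. Tested members are named, except 1 result that is not reported here. Those named in each pathway list are the 4 called genes with the smallest adjusted p. Further genes of the amino acid response list were named after their values were seen. In each list of other cell types the 2 most abundant are named, and further markers were named after their values were seen. Promoter stretches were to be limited to Slc3a2, its light chains and the most changed members of a family, and Slc1a4 was added. Apart from that of Slc3a2, only stretches with a match to the amino acid response element core are printed. Samples with equal replicate numbers were not treated as paired.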

Additional observations from a re-analysis of the deposited data

How the results depend on the processing

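The 17 alternatives were DESeq2, limma-voom, upper-quartile scaling, library totals alone, no filter, the name-keyed sheet, a replicate block, a test against a 1.5-fold change, 3 limma fits of log2 FPKM and each library left out. Of the 20 called members, 14 kept their direction and call under all of these but the 1.5-fold test, and 5 under that test too. The other 6 (Slc1a2, Slc1a4, Slc7a2, Slc7a11, Slc38a3 and Slc38a10) kept their direction.

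Same-numbered samples did not deviate together (correlations -0.0332, -0.0228 and -0.0266), so they were not treated as paired. Such correlations cannot show how the samples were prepared. With the replicate block 12 members were higher and 8 lower, as without it. Leaving out 1 library gave 11 to 13 higher and 8 lower members.

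Against a 1.5-fold change, 1500 genes were called (11.3%). Of the members 3 were higher and 2 lower. Of the lists, 9 amino acid response genes were higher and 2 lower, 5 enzymes higher and 2 lower, 0 mTORC1 genes higher and 2 lower, and 1 other carrier higher and 0 lower. That test asks for a larger change, which is why it calls fewer genes. On log2(FPKM + 0.1) with no filter 7 members were higher. Other carriers called higher numbered 3 on log2(FPKM + 0.1), filtered or not, on log2(FPKM + 1) and with upper-quartile scaling. Those called lower numbered 3 with DESeq2 and with no filter on low counts, and 3 to 5 with 1 library left out. The cause was not tested.

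Log2 fold changes that turned sign were uncalled in every case: Slc1a3 to 0.010 without Control replicate 3 (lowest with 1 library left out: -0.367), Slc6a8 to -0.008 with upper-quartile scaling and -0.002 with library totals or FPKM, Slc6a9 to 0.234, 0.065 and 0.342 without Control replicate 2, Control replicate 3 or co-cultured replicate 3 (lowest -0.356), and Slc7a15 to 0.007 and 0.013 without Control replicate 1 or co-cultured replicate 1 (lowest -0.270). The difference in the Slc7a11 share of light chains turned to 0.0143 and 0.0107 percentage points without Control replicate 2 or co-cultured replicate 3 (lowest -0.0588). With CPM in place of FPKM the difference in share was 2.03 points for Slc7a8 and -1.48 for Slc7a7. The 29 members not tested had at most 17 counts in any library. With no filter on low counts, 50 members entered the test, and 12 were higher and 8 lower.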

Other observations

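A few entries of the count table carry related symbols that the naming rule passes over. Slc6a20b, one of the mouse proline carrier genes, had 0, 14 and 6 counts in the co-cultured libraries, against 15, 4 and 3 in controls, and Slc6a20a had 0, 0 and 1, against 3, 0 and 6. Slc7a6os, a protein-coding neighbour of Slc7a6, had 296, 289 and 313 counts after co-culture and 324, 264 and 347 in controls, and was not called (adjusted p = 0.409). These genes were chosen after their values were seen.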
